A study of Homo sapiens with 4 samples.

Results

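Death receptors and caspases form the execution arm of apoptosis. The set described here holds 8 human genes, FAS, TNFRSF10A, TNFRSF10B, TNFRSF10D, APAF1, CASP6, CASP8 and CASP9, of 18348 genes named on the array, chosen by symbol with all 15 of their probes. The arrays, of Illumina's bead type, read transcripts of H9, a widely used human embryonic stem cell line, grown in a knockout serum replacement medium with basic fibroblast growth factor. One group was taken before gamma irradiation (0 h, n = 2) and the other 24 h after it (n = 2). All 4 samples come from this 1 line, the dose is not in the labels, and no unirradiated sample at 24 h was analysed here, so irradiation and a day in culture cannot be told apart. Nothing in the labels ties the replicates to separate cultures, so p-values here measure the spread between samples that may differ for technical reasons only.

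Death ligands such as FASLG and TNFSF10 (TRAIL) bind receptors whose cytoplasmic death domain recruits the adaptor FADD and the initiator caspase-8. On the mitochondrial route, released cytochrome c assembles APAF1 into the apoptosome, which activates the initiator caspase-9. Both routes converge on executioner caspases, and BID, cleaved by caspase-8, links the first to the second. FAS, the TRAIL receptors, APAF1 and CASP6 are known targets of p53, the transcription factor that DNA damage stabilises.

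Between 19705 and 20443 of 47217 probes were detected on an array (detection p under 0.05). The raw median intensity was 158.4 and 175.2 before irradiation, against 143.8 and 134.7 at 24 h, so levels below are background-corrected and quantile-normalized log2 signals. The pluripotency markers POU5F1, NANOG, SOX2 and LIN28A were detected on all 4 arrays and 0 of the 4 passed the test below, whereas the leukocyte markers PTPRC and CD3E and the germ layer markers TBXT, MIXL1, SOX17 and GATA6 were detected on none. The monocyte marker CD14 was detected on 3 arrays, and LYZ, PAX6, SOX1 and FOXA2 on 1 each. Of 5 tested fibroblast markers, 3 rose at 24 h (ACTA2, VIM and COL1A1). The summed signal of all 8 fibroblast markers was 4917 and 5118 before irradiation, against 9314 and 9000 at 24 h. VIM, the brightest of them, weighs most in this sum, with a mean log2 signal of 11.51 at 0 h and 12.37 at 24 h. COL3A1 and LUM were detected on no array and DCN on 1. The part of such a shift in the values below was not tested, and in bulk samples fewer cells of a type and less RNA per cell cannot be told apart.

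A gene was tested on its brightest probe if that probe was detected on at least 2 of the 4 arrays. Of the 8 genes, 7 passed this filter and FAS did not. Of the 15 probes, 10 passed and 9 were detected on all 4 arrays. In limma's fit, 251 of 11030 genes (2.28%) passed an adjusted p of 0.05, and 0 of the 7 members did. At an unadjusted p under 0.05 there were 2 members, TNFRSF10B and CASP8, where 30.3% of all genes lay. The groups did not overlap for 4 of the 7, against 61.6% of all genes. APAF1, TNFRSF10B and TNFRSF10D were the 3 higher ones (30.3% of all genes) and CASP8 the 1 lower (31.3%). CASP8 entered the fit through its 0 h arrays alone and was not detected at 24 h, so its place in these counts is no result. The median absolute log2 change of the 7 was 0.25, and that of all genes tested was also 0.25.

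The 3 TRAIL receptors and APAF1 lay above 0 in that fit, as did 5450 of 11030 genes tested. CASP6 and CASP9 lay below 0, as did 5580 genes. CASP8 also lay below 0, a sign that its entry through the 0 h arrays alone favours. Under the alternatives in which a member was tested its sign held, except for TNFRSF10A without 24 h replicate 1. CASP8 was not tested under the stricter filters, and no difference between receptors and caspases was tested.

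**Figure D1:**
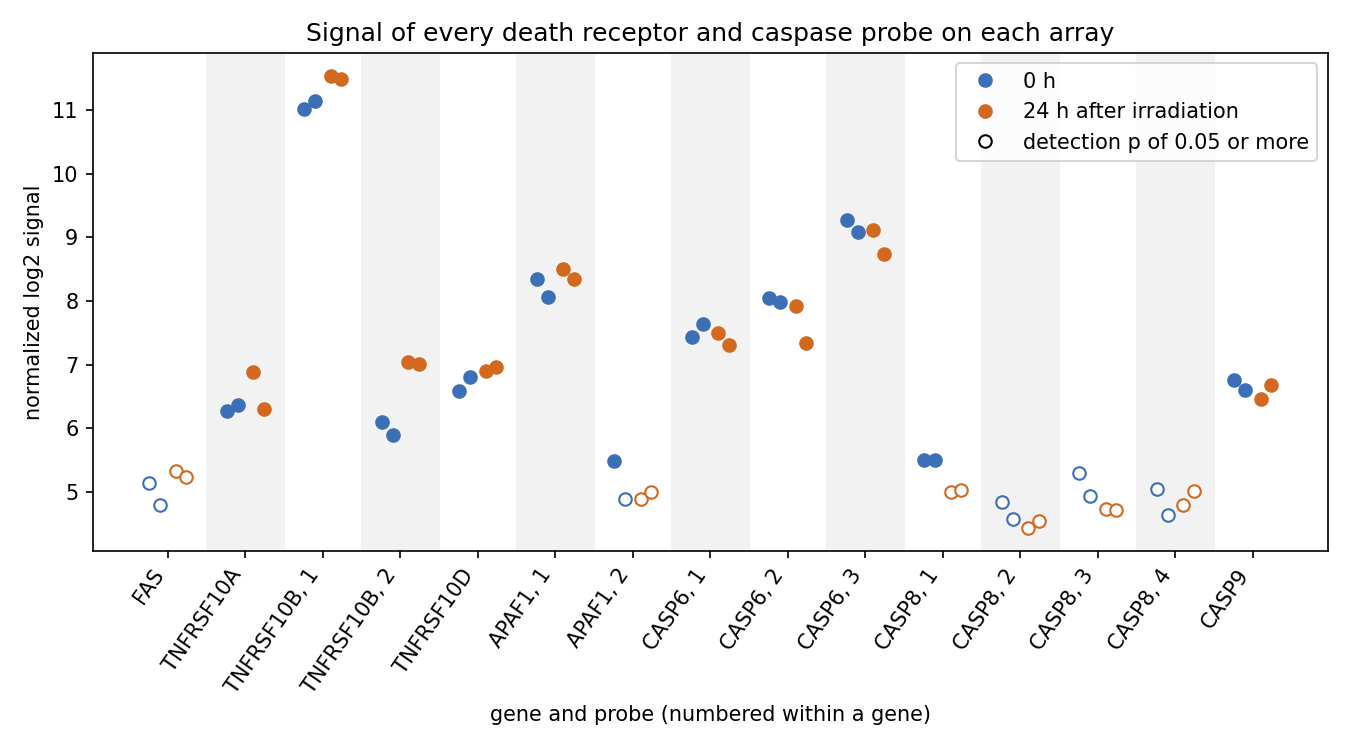
Normalized log2 signal (y axis) of the 15 death receptor and caspase probes (x axis, numbered within a gene in order of probe identifier) on each array, with 0 h arrays in blue, 24 h arrays in orange, and open circles where the detection p was 0.05 or more. Signals can be compared within a probe and not between probes. Both TNFRSF10B probes were higher on the 2 arrays at 24 h, the first CASP8 probe was detected at 0 h alone, and the FAS probe was open on all 4 arrays.

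TNFRSF10B encodes TRAIL receptor 2 (DR5), which carries a full death domain. Its brighter probe (ILMN_1699265) read 11.02 and 11.15 at 0 h and 11.54 and 11.49 at 24 h on the log2 scale. Both arrays at 24 h lay above both at 0 h. The mean was 11.08 ± 0.09 (SD, n = 2) before and 11.52 ± 0.03 after, a log2 change of 0.43 ± 0.11 (SE), or 1.35-fold, with an adjusted p of 0.0876 in limma. Before normalization its intensity was 2516 and 3189 before irradiation, against 2633 and 2003 after it, values that overlap. The dimmer probe (ILMN_1812915), annotated to the same transcript, read 6.10 and 5.90 at 0 h and 7.04 and 7.01 at 24 h. It was detected on all 4 arrays, and again the groups did not overlap. Its log2 change was 1.03 ± 0.13, or 2.04-fold.

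That dimmer probe was tested in a fit of all 20361 kept probes, where its adjusted p was 0.0801. It passed under 5 of 13 alternatives, such as no background correction (adjusted p = 0.0235) and the trended, robust prior (adjusted p = 0.018), and over all 13 its adjusted p ranged up to 0.356. In that fit 0% of probes passed and 25.7% had an unadjusted p under 0.05. The distance between the TNFRSF10B probes moved with the background correction. Left uncorrected, the log2 changes were 0.41 for the brighter and 0.44 for the dimmer probe, and with a larger offset of 50 they were 0.43 and 0.75. TNFRSF10B passed the threshold under 3 of 15 alternatives: without background correction (adjusted p = 0.0161), with a trended, robust prior (adjusted p = 0.00516), and as the mean of its probes (0.73, adjusted p = 0.0491). Over the 15 alternatives its adjusted p ranged from 0.00516 to 0.375, and its log2 change from 0.31 to 0.73.

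**Figure D2:**
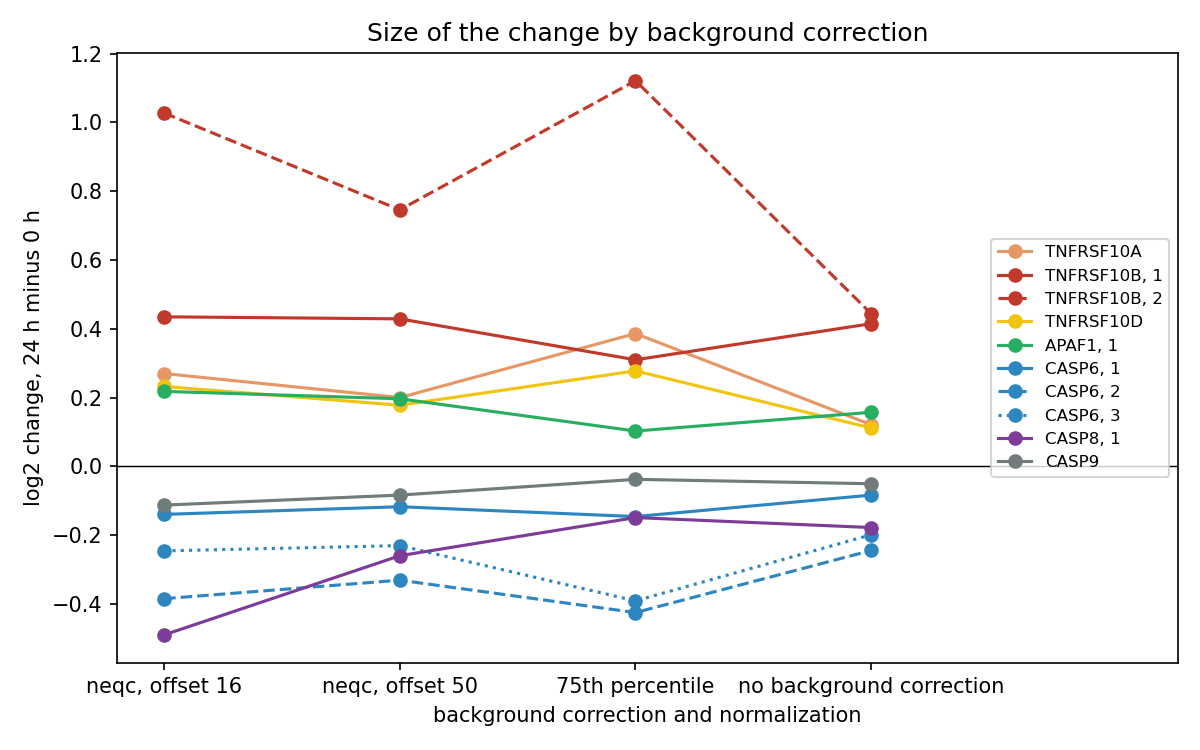
Log2 change at 24 h against 0 h (y axis) of the 10 kept member probes under 4 kinds of background correction and normalization (x axis), 1 line per probe, with line styles for probes of the same gene. The TNFRSF10B probes stand at 0.43 and 1.03 with the offset of 16 and at 0.41 and 0.44 without background correction. Between the same settings CASP8, detected at 0 h alone, moves from -0.49 to -0.18.

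TNFRSF10A encodes TRAIL receptor 1 (DR4), the other receptor that carries a death domain for this ligand. Its only probe read 6.28 and 6.37 at 0 h and 6.88 and 6.31 at 24 h. Only 24 h replicate 1 was high, replicate 2 lay between the 0 h arrays, and the groups overlapped. The log2 change was 0.27 ± 0.22 (adjusted p = 0.456). Without 24 h replicate 1 it was -0.016, and without 24 h replicate 2 it was 0.57, so that 1 array decides its direction.

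TNFRSF10D encodes a decoy receptor for TRAIL with a truncated death domain. Its probe read 6.59 and 6.81 at 0 h and 6.90 and 6.96 at 24 h. The groups did not overlap, although the gap between them was smaller than the distance between the 0 h arrays. The log2 change was 0.23 ± 0.13 (adjusted p = 0.284), and 0.11 without background correction. In the RefSeq annotation of GRCh38.p14, TNFRSF10B, TNFRSF10C, TNFRSF10D and TNFRSF10A are consecutive protein-coding genes on chromosome 8. TNFRSF10C, a decoy receptor held to the membrane by a lipid anchor, was detected on 1 of the 2 arrays at 0 h and on both at 24 h, and its log2 change was 0.49 ± 0.16 (adjusted p = 0.129). In this neighbourhood 4 of 4 genes stood above 0, as did 5450 of 11030 genes tested, and 0 passed over all genes. TNFRSF10C fell short of detection on 1 of the 0 h arrays, which favours a value above 0, and TNFRSF10A takes its sign from 1 array. The count is therefore no result about the neighbourhood.

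FAS encodes the death receptor CD95. Its 1 probe was not well above background on any of the 4 arrays, with detection p-values of 0.138 and 0.503 at 0 h and 0.0805 and 0.104 at 24 h. The signals were 5.14 and 4.80 before irradiation, against 5.34 and 5.24 after it, so both groups lie below the level at which a fold can be given. FAS therefore has no test in the main fit, and the probe may miss the transcript. Without the filter, its adjusted p was 0.534 among 47217 probes tested on their own.

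RefSeq start windows of GRCh38.p14 were at hand for 5 of the 8 genes (FAS, APAF1, CASP6, CASP8 and CASP9), 10 windows in all, and the 250 bases before each annotated start were searched for the p53 half-site consensus. The consensus reads the same on both strands, and a match is a description of the letters and not a binding site. It was found in 3 of the 10 member windows, against 5.57% of all 35116 windows. The windows of APAF1 and CASP6, named above as p53 targets, held no match, and the TRAIL receptors had no window. The 10 windows come from 5 genes, and the first and second FAS windows overlap. The share is therefore no result about the members. The 3 windows are shown as the member start regions that hold the match, with the half-site in capitals. The FAS window (chr10:88991181-88991430, + strand) is the third of 3 annotated starts and holds the half-site 122 bases before it. The CASP8 window (chr2:201257785-201258034, + strand) is the second of 3, and the CASP9 window (chr1:15524791-15525040, - strand) the second of 2.
FAS: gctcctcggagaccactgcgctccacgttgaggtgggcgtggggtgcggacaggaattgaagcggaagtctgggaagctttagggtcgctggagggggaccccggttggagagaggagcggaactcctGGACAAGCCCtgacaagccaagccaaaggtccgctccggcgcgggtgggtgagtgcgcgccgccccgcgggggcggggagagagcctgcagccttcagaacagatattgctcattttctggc
CASP8: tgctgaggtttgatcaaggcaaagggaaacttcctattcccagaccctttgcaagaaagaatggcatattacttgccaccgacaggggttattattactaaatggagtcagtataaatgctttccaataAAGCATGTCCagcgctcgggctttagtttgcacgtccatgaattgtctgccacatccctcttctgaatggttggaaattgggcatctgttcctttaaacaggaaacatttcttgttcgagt
CASP9: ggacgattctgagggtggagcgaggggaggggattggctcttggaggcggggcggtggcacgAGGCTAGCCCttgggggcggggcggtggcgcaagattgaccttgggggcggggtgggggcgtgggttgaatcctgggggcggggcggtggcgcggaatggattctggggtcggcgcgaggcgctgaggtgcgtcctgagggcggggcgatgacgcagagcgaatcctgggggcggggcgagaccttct

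CASP8 encodes the initiator caspase of the receptor route. It was named by 4 probes, each annotated to another transcript. The probe that stood for the gene (ILMN_1673757) read 5.51 and 5.50 at 0 h, with detection p-values of 0.0325 and 0.0442, and 5.01 and 5.03 at 24 h, with 0.251 and 0.2. It passed the filter through the 0 h arrays alone, where it was just detected. The groups did not overlap, and the replicates of a group lay within 0.03 of each other. Because it was not well above background at 24 h, that level is a bound. In the main setting 0 h stood 1.01-fold above this bound. With scaling to the 75th percentile the groups overlapped, at 5.390 and 5.315 against 5.087 and 5.321, so no minimum fold is claimed. The fit's value was -0.49 (adjusted p = 0.0673), which carries no weight as a change because the probe entered the fit through 0 h alone.

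The other CASP8 probes were detected on no array, with measured changes of -0.22, -0.39 and 0.06. With scaling to the 75th percentile these were 0.25, 0.03 and 0.48. Across alternatives the CASP8 change ran from -0.52 to -0.15, with adjusted p from 0.0675 to 0.469. It was -0.18 without background correction and -0.15 with scaling to the 75th percentile. With the trended, robust prior, which gives dim genes a wider error, its SE was 0.38.

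APAF1, the scaffold of the apoptosome, was read by a probe at 8.35 and 8.06 at 0 h and 8.50 and 8.35 at 24 h. The lower 24 h array exceeded the higher 0 h array by less than 0.01, so the groups did not overlap but touched. The log2 change was 0.22 ± 0.15 (adjusted p = 0.377), with 0.07 to 0.36 over the alternatives. Its other probe, annotated to another transcript, was detected on 0 h replicate 1 alone and was not kept. The measured change of that probe was -0.24, of the opposite sign, but 0.14 with scaling to the 75th percentile.

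The start regions of APAF1 and CASP8 lay far apart in CG dinucleotides, which mark the CpG islands of broadly used promoters. They are shown with each CG in capitals because, of the 5 members with a window, APAF1 has the most CG and CASP8 the fewest. The APAF1 window (chr12:98645040-98645289, + strand) held 38 CG, more than in 96.7% of all windows. The first CASP8 window (chr2:201233213-201233462, + strand) held 6, and the other 2 held 5 each, where the median of all windows was 11. The CASP6 window held 26, the CASP9 windows 29 and 25, and the FAS windows 14, 11 and 19. FAS was detected on no array. Among named genes with no window above 6 CG, 20.3% of 2947 were tested on these arrays, against 75.7% of the 10948 others. CASP8 counts as tested there through its 0 h arrays alone. Whether CG content bears on the detection of any member was not tested.
APAF1: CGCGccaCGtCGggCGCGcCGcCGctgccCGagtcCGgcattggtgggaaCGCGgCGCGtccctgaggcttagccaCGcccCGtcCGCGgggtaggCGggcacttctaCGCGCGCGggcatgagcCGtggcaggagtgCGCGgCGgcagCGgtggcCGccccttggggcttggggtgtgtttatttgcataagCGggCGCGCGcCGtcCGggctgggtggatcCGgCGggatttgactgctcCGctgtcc
CASP8: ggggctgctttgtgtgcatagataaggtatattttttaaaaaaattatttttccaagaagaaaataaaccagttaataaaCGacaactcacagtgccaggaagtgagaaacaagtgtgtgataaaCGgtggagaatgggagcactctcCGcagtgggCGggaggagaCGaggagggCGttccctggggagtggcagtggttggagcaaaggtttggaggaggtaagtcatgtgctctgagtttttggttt

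CASP9 encodes the initiator caspase that the apoptosome activates. Its probe read 6.76 and 6.61 at 0 h and 6.47 and 6.68 at 24 h. The arrays of the groups interleaved. The log2 change was -0.11 ± 0.13 (adjusted p = 0.611), and 74.7% of all genes tested had a larger change in size. It was -0.0096 without 24 h replicate 1 and -0.23 without 24 h replicate 2.

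CASP6 encodes an effector caspase known for cleaving nuclear lamins, and all 3 of its probes were detected on every array. The brightest (ILMN_2367113) read 9.27 and 9.08 at 0 h and 9.12 and 8.74 at 24 h, with overlapping groups and a log2 change of -0.25 ± 0.17 (adjusted p = 0.4). The next (ILMN_1694877) read 8.05 and 7.99 at 0 h and 7.93 and 7.34 at 24 h, which did not overlap, with a change of -0.38 ± 0.23, which was -0.095 without 24 h replicate 2 and -0.68 without 24 h replicate 1. The dimmest (ILMN_1659350) read 7.44 and 7.65 at 0 h and 7.49 and 7.31 at 24 h, with a change of -0.14 ± 0.15. On each CASP6 probe 24 h replicate 2 was the lowest of the 4 arrays. Without that array the change of the brightest probe was -0.055, and without 24 h replicate 1 it was -0.44.

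**Figure D3:**
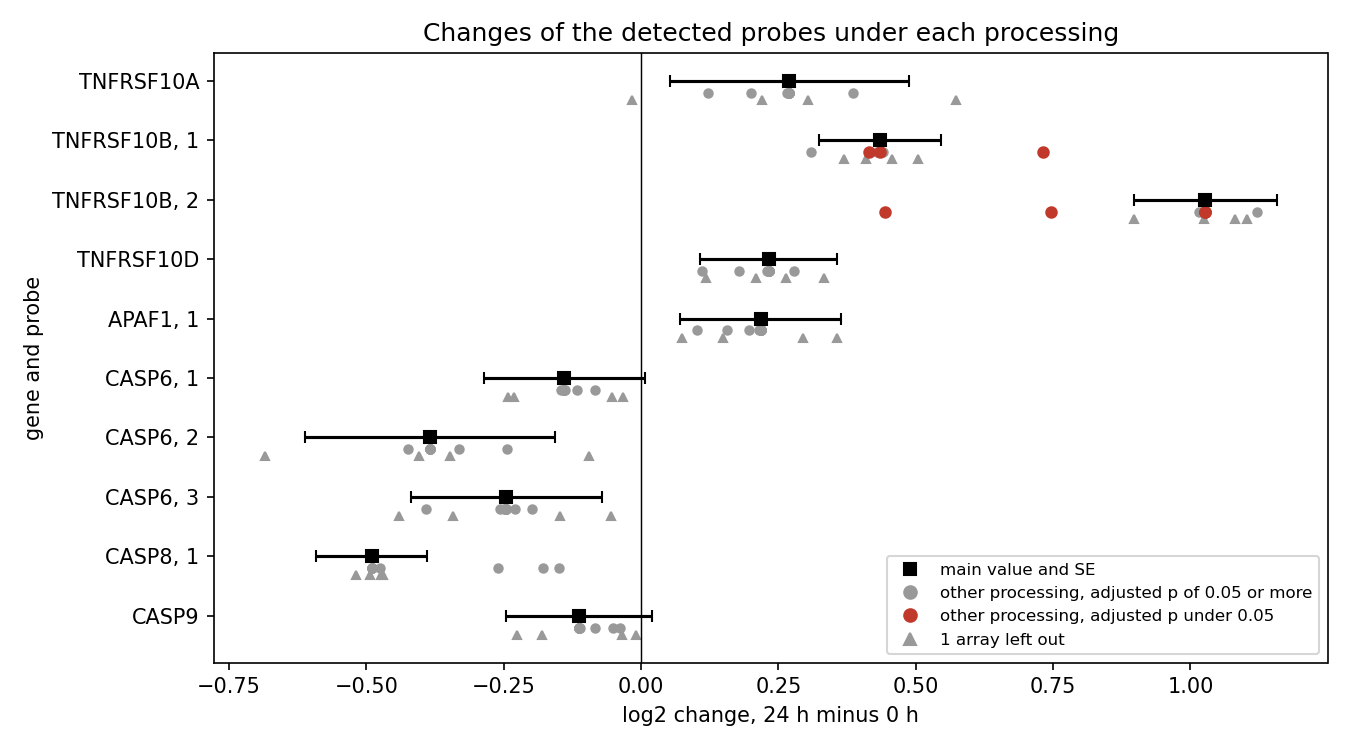
Log2 change at 24 h against 0 h (x axis) of the 10 kept member probes (y axis). Black squares with bars give the main value and its SE, grey circles other processing, grey triangles fits with 1 array left out, and red circles an adjusted p under 0.05. Red points occur for the TNFRSF10B probes alone, and the red point at 0.73 is the mean of both.

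The genes whose centred log2 profiles over the 4 arrays were closest to TNFRSF10B, which had the largest change above 0, were CSNK1D, NCAPG2 and PLD2, with root mean square differences of 0.0132, 0.0133 and 0.014. Their log2 changes were 0.44, 0.44 and 0.46. No likeness is given for CASP8, which had the lowest fitted value, because its 24 h signals were not above background.

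Around these members, 36 of 63 listed pathway genes were tested. BIRC6 and BID fell and LMNA rose, and the other 33 did not pass over all genes. That is 1 higher and 2 lower, against 1.35% and 0.925% of all genes. The median log2 change was 0.03 over the 36 and -0.01 over all genes tested. At an unadjusted p under 0.05 there were 11 higher (15% of all genes) and 7 lower (15.3%).

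BIRC6, a giant inhibitor of apoptosis protein that carries a ubiquitin-conjugating domain, read 8.38 and 8.32 at 0 h and 7.34 and 7.53 at 24 h, and fell by 0.92 ± 0.12 on the log2 scale (adjusted p = 0.0481, limma). Its relatives BIRC5 (survivin), at -0.34 ± 0.14, and BIRC2, at -0.31 ± 0.14, did not pass. As the mean of the 2 kept probes of each gene, BIRC5 stood at -0.18 and BIRC2 at -0.20. Of 4 tested genes of this list 3 lay below 0, as did 5580 of 11030 genes tested. BID, the BH3 protein that caspase-8 cleaves, read 9.42 and 9.47 at 0 h and 8.63 and 8.49 at 24 h, and fell by 0.88 ± 0.11 (adjusted p = 0.0465). LMNA, the lamin that caspase-6 cleaves, read 9.10 and 9.05 at 0 h and 9.85 and 10.05 at 24 h, and rose by 0.88 ± 0.12 (adjusted p = 0.0499). DFFA, the inhibitor of the apoptotic nuclease, stood at 0.46 ± 0.11 (adjusted p = 0.0794) and passed under 4 of 15 alternatives. Of 9 substrate and nuclease genes 1 was called higher and 1 lower.

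These 3 calls were near the threshold. Averaging the probes of a gene gave -0.43 for BID (adjusted p = 0.0785) and 0.60 for LMNA (adjusted p = 0.0639). All 3 calls also ended without a filter, with a replicate block and with every probe tested on its own (adjusted p from 0.07 to 0.107). Leaving out 0 h replicate 1, 0 h replicate 2, 24 h replicate 1 or 24 h replicate 2 ended all 3, with adjusted p from 0.096 to 0.234.

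Of 6 death ligands, 2 were tested and 0 passed. TNFSF12 (TWEAK) stood at 0.70 ± 0.11 (adjusted p = 0.053) and LTA (lymphotoxin alpha), for which 1 of the 0 h arrays fell short of detection, at 0.69 ± 0.14 (adjusted p = 0.065). The ligands of the members, FASLG and TNFSF10, were each named by 1 probe that was detected on no array. Of 8 other death receptors and decoys 5 were tested and 0 passed. All 5 lay above 0, as did 5450 of 11030 genes tested. Their median of 0.49 was the value of TNFRSF10C, which fell short of detection on 1 of the 0 h arrays, as did NGFR and EDA2R. Such a shortfall at 0 h favours a value above 0, so neither the count nor the median is a result about these receptors. TNFRSF1A and TNFRSF21, detected on every array, stood at 0.15 and 0.0047. NGFR, the neurotrophin receptor p75, stood at 1.04 ± 0.27 (adjusted p = 0.09) and EDA2R, a receptor of the tumour necrosis factor family, at 0.56 ± 0.29 (adjusted p = 0.276), both also short of detection on 1 of the 0 h arrays. EDA2R stood at 0.14 without 0 h replicate 2 and at 0.95 without 0 h replicate 1. Without background correction the changes of TNFSF12, LTA and NGFR were smaller, at 0.33, 0.23 and 0.39, and NGFR and TNFSF12 passed there (adjusted p = 0.0424 and 0.0334). Over all alternatives TNFSF12 passed under 6 of 15, NGFR under 2 of 14 and LTA under 1 of 14.

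Of 14 adaptors and regulators of the receptor complex, 8 were tested and 0 passed, with 4 above and 4 below 0. PIDD1, a death domain protein that p53 induces and that activates caspase-2, stood at 0.79 ± 0.11 (adjusted p = 0.0505) and passed under 8 of 15 alternatives. FAIM, an inhibitor of FAS signalling, stood at -0.86 ± 0.17 (adjusted p = 0.0654) and passed under 5 of 15 alternatives. DEDD2 stood at -0.20 ± 0.11 and passed under 0 of 15. Of 8 other caspases 1 was tested, CASP10, an initiator like CASP8. It was detected on 1 array in each group, at -0.30 ± 0.34, and its direction turned when arrays were scaled to the 75th percentile (0.01), and also without 24 h replicate 1 (0.09) or 0 h replicate 2 (0.000548).

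Of 7 genes of the apoptosome and of mitochondrial release, all were tested and 0 passed, with 3 higher (15% of all genes) and 2 lower (15.3%) at an unadjusted p under 0.05. CYCS, cytochrome c, stood at -0.82 ± 0.16 (adjusted p = 0.0624), whereas AIFM1, the apoptosis-inducing flavoprotein of mitochondria, stood at 0.63 ± 0.10 (adjusted p = 0.053). HTRA2, a mitochondrial protease, stood at 0.46 ± 0.13 (adjusted p = 0.109). Of 15 alternatives CYCS passed under 6, AIFM1 under 5 and HTRA2 under 2. The named genes of this list thus stood on both sides of 0. Of 3 necroptosis genes, 0 were tested.

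**Figure D4:**
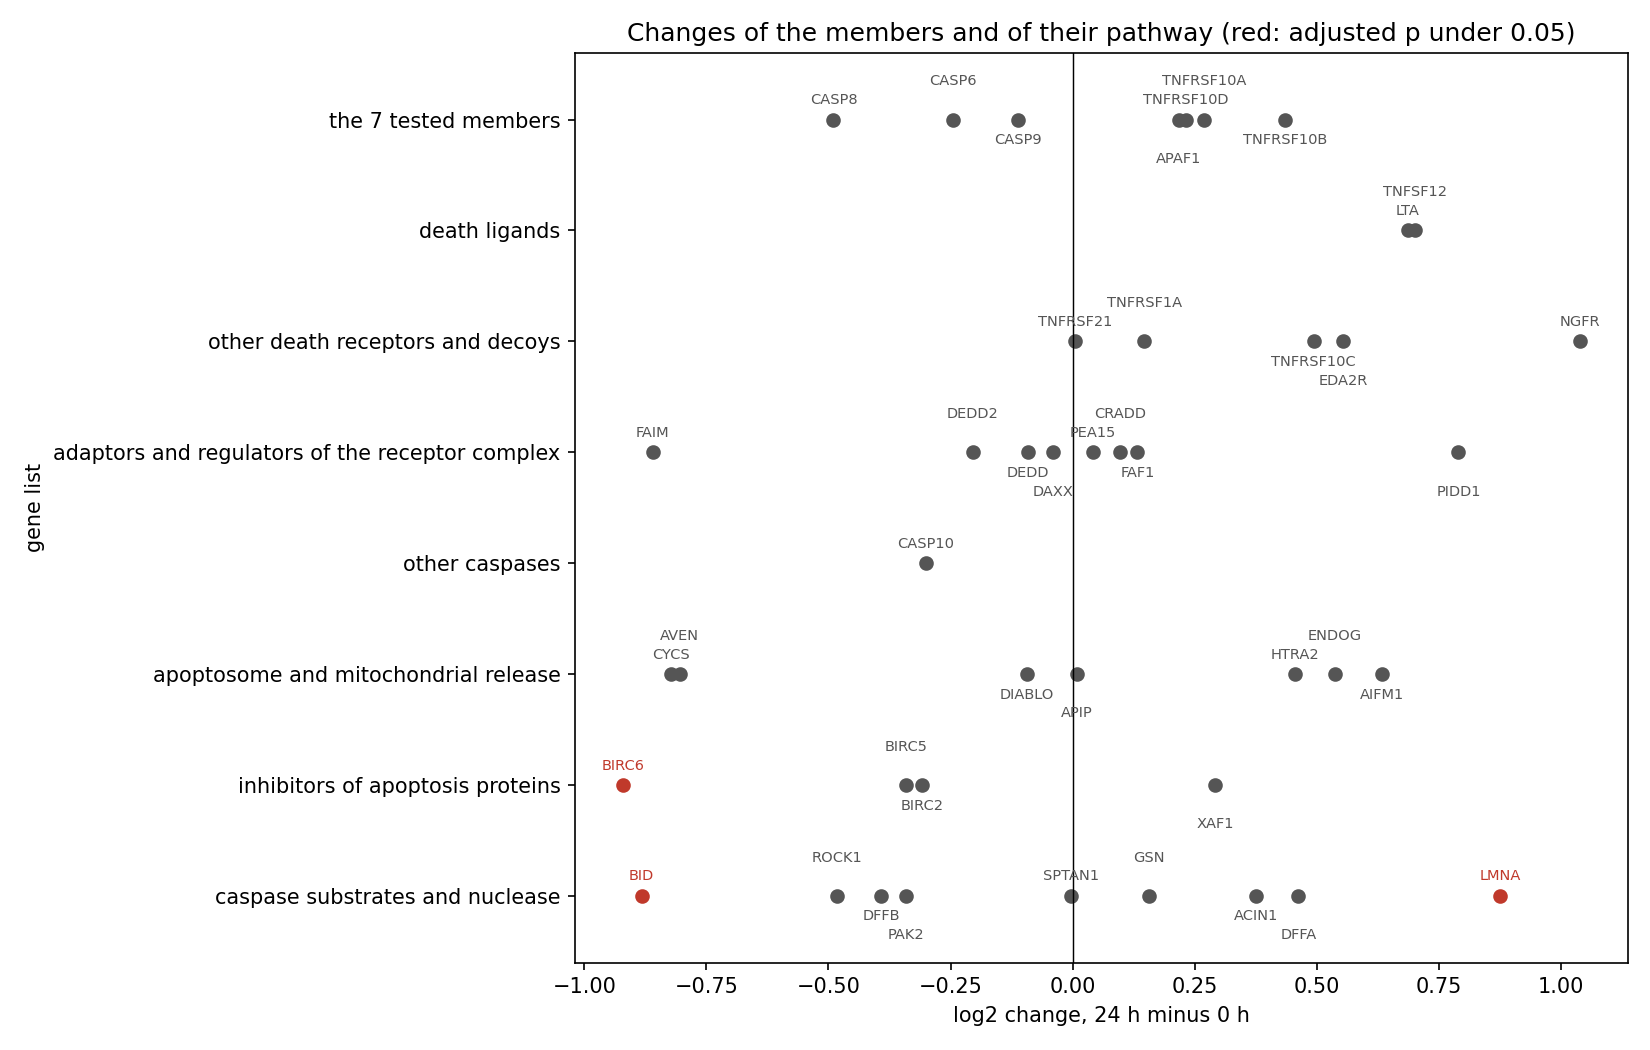
Log2 change at 24 h against 0 h (x axis) of the 7 tested members and of the tested genes of 7 pathway lists (y axis), 1 point per gene, in red where the adjusted p was under 0.05. The members lie between -0.49 and 0.43. The -0.49 is CASP8, which entered the fit through its 0 h arrays alone, so it carries no weight as a change. The lowest of the other members is CASP6 at -0.25. The 3 red points are BIRC6 and BID below 0 and LMNA above it.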

How the data were processed

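Per the file headers, the authors deposited a table of non-normalized values with a mean bead intensity and a detection p-value per probe and array. The authors also deposited a table of log2 values, for which limma is named per the submitters' processing notes, whose version is not given in the sources used here, nor are its settings. Against neqc of the same array its columns had r = 0.99998 over 34466 probes and medians of 5.35 to 5.36, so it was taken as uncentred log2 signal.

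Intensities were corrected and quantile normalized with neqc of limma 3.58.1 (R 4.3.3, offset 16, background fitted from the detection p-values). Probes with a detection p under 0.05 on at least 2 arrays were kept (20361, of which 14235 had 1 symbol). Names came from the platform annotation, which over all 47217 probes gives 1 symbol for 26358, several for 3 and none for 20856 (26325 Entrez identifiers matched RefSeq of GRCh38.p14). The brightest kept probe stood for its gene. Genes were fitted with lmFit and eBayes, two-sided, adjusted by Benjamini-Hochberg over 11030 genes. The code was tested on simulated data. Named pathway genes were those that passed and the 3 with the smallest p per list, and likeness was sought for the members of largest rise and fall, the latter not reported because its level at 24 h is a bound. The members and lists were chosen with earlier results of these data known. For a bound, each dim array took its lowest detected signal or the probe's own, whichever was higher, and the brighter mean was divided by the mean of these. Each position on the 1 slide held 1 sample, and the groups lay at different positions, which cannot be told apart from time. The number of arrays limits the precision. Alternatives covered the background correction, scaling, filter, probe choice, prior, replicate block, the authors' table and leaving out each array.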

Additional observations from a re-analysis of the deposited data

How the results depend on the processing

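The count of genes called moved most with the processing. It was 251 in the main setting, 2183 without background correction, 1355 with an offset of 50, 722 with scaling to the 75th percentile, 388 from the authors' log2 table, 1370 for genes detected on all 4 arrays, 1240 with a detection p under 0.01, 2522 with the trend and robust prior, and 0 without a filter and with every probe on its own. In the same order the pathway count, 3 in the main setting, was 14, 9, 6, 4, 9, 9, 15, 0 and 0. The members called numbered 0 in the main setting and 1, TNFRSF10B, without background correction, with the trend and robust prior and with the mean of its probes.

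Replicates share numbers in the labels, and the deviations of same-numbered arrays had a correlation of 0.154 over genes, which with 2 pairs does not establish pairing. With the replicate block 0 genes and 0 pathway genes were called, with 3828 and 19 at an unadjusted p under 0.05, and the members called stayed at 0. With any single array left out the counts ranged from 0 to 0 for genes, members and pathway genes, with 1840 to 3324 genes at an unadjusted p under 0.05. Directions of the 7 members and of their 3 other kept probes held under the alternatives in which they were tested (CASP8 was not under the stricter filters), except for TNFRSF10A, which ran from -0.016 to 0.57 with single arrays left out. CASP10 turned to 0.0104 with scaling to the 75th percentile, to 0.000548 without 0 h replicate 2 and to 0.0859 without 24 h replicate 1, and ran from -0.71 to 0.0859 with single arrays left out. The cause of these moves was not tested. Dim signal limits FAS, CASP8 and CASP10, which lie at or near the lowest detected signal of 5.43 to 5.51 on the log2 scale. It also limits LTA, TNFRSF10C, NGFR and EDA2R, whose 0 h means were 5.40, 5.45, 5.48 and 5.55. Each of these was short of detection on 1 of the 0 h arrays.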

Other observations

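The TNFRSF10B probes were set beside the other genes with several kept probes, after their values were seen. Among 2634 such genes, the median distance between the highest and the lowest log2 change of a gene's probes was 0.249. TNFRSF10B stood at 0.592, and 16.2% of these genes had a wider distance. CASP6, with 3 probes, stood at 0.245. Without background correction TNFRSF10B stood at 0.0291 and 90.1% of the genes had a wider distance, while CASP6 stood at 0.161 against a median of 0.163. Probes of 1 gene had changes of opposite sign in 34.1% of the genes with either processing, which was not seen for TNFRSF10B or CASP6. The cause of these distances was not tested.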
